A study of Mus musculus with 16 samples.

Results

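The 34 genes described here carry the cellular response to low oxygen and the breakdown of glucose to lactate, and they were chosen by gene symbol from a named list of hypoxia response and glycolysis genes, out of 18635 genes in the deposited tables. This list and the others below were chosen with earlier results of these data known. Counts of their members set beside all genes are therefore not independent of the data. All 34 genes were listed in each of the 4 tables and all 34 passed the filter on low counts in both lines. They were measured by RNA sequencing of samples labelled as mouse tumours, formed by implanted cancer lines with Trp53bp1 (encoding the DNA repair protein 53BP1) knocked out or intact, and the study set the knockout tumours of each line against wild-type tumours of that line. The 16 libraries formed 4 groups, namely 3 ID8 Trp53bp1 knockout, 3 ID8 wild-type, 5 KPC Trp53bp1 knockout and 5 KPC wild-type tumours. ID8 is a mouse line from ovarian surface epithelium and KPC a mouse line from pancreatic cancer. All groups are described as grown in syngeneic mice, whose strain, age and sex the labels do not give, and no treatment is named. Each genotype of a line is described as a line with no clone named, so the knockout and any other difference between the 2 cultures of a line cannot be told apart. The labels call the replicates biological without naming the animals, so the p-values measure the spread between these samples. Every value with ± below is a mean and SD over the libraries of a group, 3 in ID8 and 5 in KPC.

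When oxygen is scarce, the transcription factor subunit HIF-1 alpha escapes hydroxylation by the prolyl hydroxylases (Egln genes), is no longer handed to the VHL ubiquitin ligase, and with its partner ARNT switches on target genes. The targets include the glucose transporter GLUT1, most glycolytic enzymes, the lactate exporter MCT4, the kinase that holds pyruvate out of the mitochondria, angiogenic factors and collagen hydroxylases. In solid tumours the response marks poorly perfused regions, and many cancer cells also run glycolysis at a high rate in the presence of oxygen.

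Libraries held 17902867 to 19727536 counts, so that 3 counts equal 0.152 to 0.168 CPM, the count scaled to the size of its library. Trp53bp1 itself was at 18.4 ± 0.502 CPM in ID8 knockout and 46.1 ± 2.89 CPM in ID8 wild type (SD, n = 3 each), and at 34.1 ± 3.99 CPM in KPC knockout and 51.5 ± 3.59 CPM in KPC wild type (SD, n = 5 each). It was lower in the knockout of both lines (log2 -1.33, adjusted p = 1.15e-10 in ID8, and log2 -0.59, adjusted p = 0.004 in KPC, edgeR's quasi-likelihood test with Benjamini-Hochberg adjustment). By an exact two-sided permutation test of CPM, p was 0.1 in ID8 and 0.00794 in KPC, each the smallest that its number of libraries allows. The ID8 libraries went against their tumour label in one respect: the leukocyte gene Ptprc, the endothelial gene Cdh5 and the haemoglobin gene Hbb-bs were at 0 counts in all 6, whereas each of the 10 KPC libraries held all 3. The labels' extraction protocol speaks of RNA from cells, and the labels do not settle the source of the ID8 RNA. Whether this RNA came from whole tumours, tumour cells apart from host tissue or cultured cells was not tested. The ID8 samples are called tumours here by their label alone, which limits what their levels, and the differences between the lines, can be read as. The summed level of 15 leukocyte genes was 3.83 to 5.96 CPM in ID8 knockout and 11.0 to 12.7 CPM in ID8 wild type, against 2781 to 4490 CPM in KPC knockout and 1552 to 3564 CPM in KPC wild type. Lists of 8 erythroid and 8 neutrophil genes summed to at most 0.411 and 0.308 CPM in ID8 knockout and 0.263 and 0.783 CPM in ID8 wild type. The endothelial and fibroblast lists were not empty in ID8. Of 10 endothelial genes 7 had counts there, but only 5 passed the filter on low counts. Together the 10 genes summed to 169 to 199 CPM in ID8 knockout and 155 to 164 CPM in ID8 wild type. In KPC they summed to 441 to 598 CPM in knockout and 406 to 582 CPM in wild type. The 10 fibroblast genes summed to 745 to 797 CPM in ID8 knockout and 932 to 1033 CPM in ID8 wild type. In KPC they summed to 16795 to 24921 CPM in knockout and 13793 to 22672 CPM in wild type. KPC libraries carried skeletal muscle RNA in uneven amounts, with KPC wild-type replicate 2 far above the rest at 7583 CPM of Acta1. In bulk RNA, fewer cells of a type and less RNA per cell cannot be told apart.

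In ID8 the genes of the whole glycolytic route were lower in the knockout. Of the 34 genes, 31 fell and 2 rose at an adjusted p under 0.05, and 1 did not pass, where 25.5% of the 11933 genes tested in ID8 fell and 25.4% rose. The median log2 difference of the 34 genes, knockout minus wild type, was -0.86, against 0.0062 over all genes tested. Among the 31 that fell, 14 did so by at least 2-fold, against 4.11% of all genes tested. Knockout and wild-type libraries did not overlap for 33 of the 34, where 58% of all genes tested showed no overlap. The counts behind these genes summed to 2.00%, 2.16% and 2.22% of all counts in the knockout libraries and to 3.96%, 3.61% and 3.59% in the wild-type libraries. In KPC the same genes gave a different picture: 4 rose, 0 fell and 30 did not pass, where 6.67% of the 14283 genes tested rose and 7.01% fell.

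**Figure D1:**
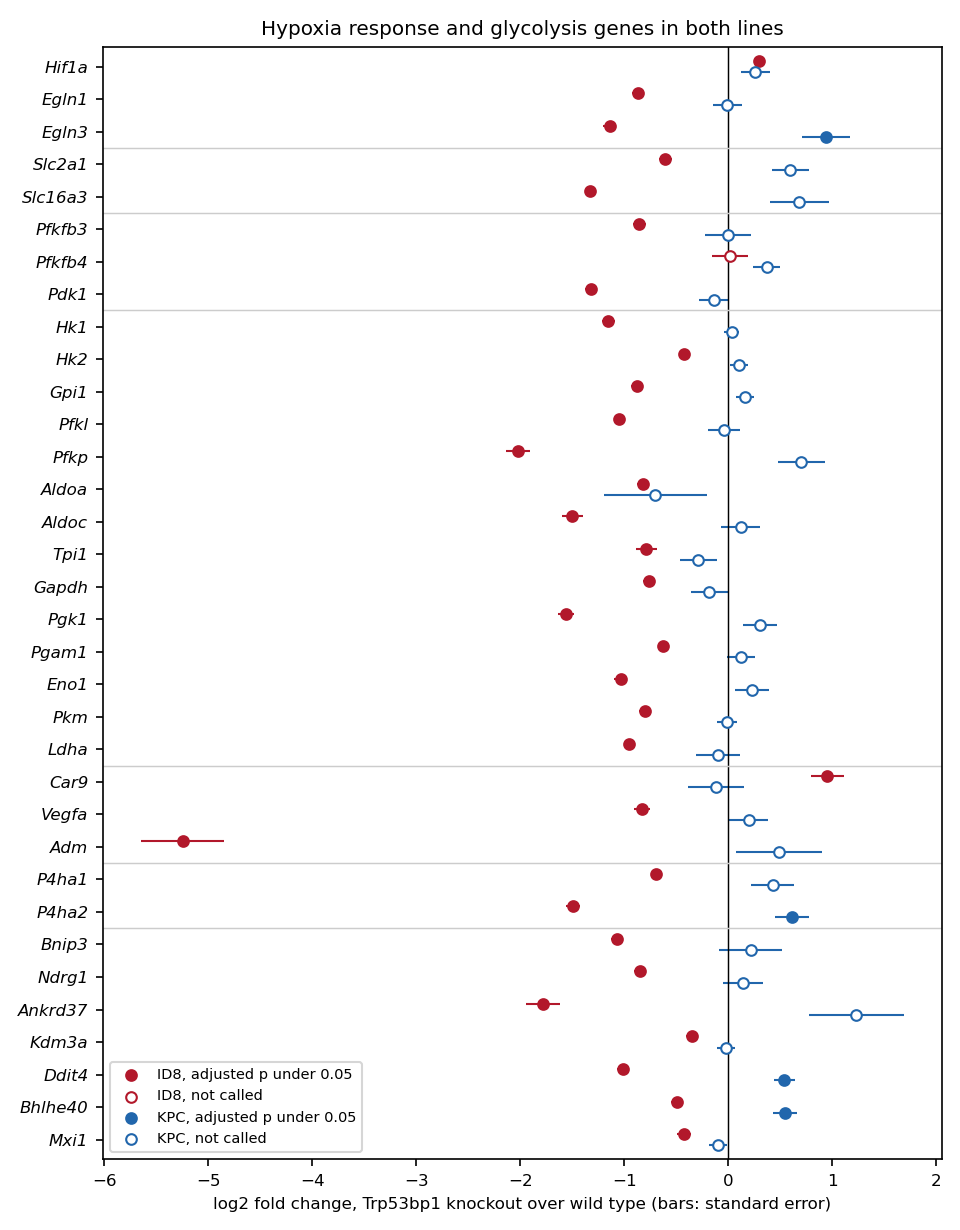
Log2 fold change, Trp53bp1 knockout over wild type, of each of the 34 genes in ID8 (red) and KPC (blue), with bars of 1 standard error and filled points where the adjusted p was under 0.05; grey lines part the roles. In ID8 31 filled points lie left of 0 and 2 right of it, and in KPC 4 filled points lie right of 0 and 0 left of it.

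HIF binds the short motif ACGTG or GCGTG, so the promoters of genes that the results turn on are shown here, from RefSeq on GRCm38.p6, whereas the count tables used GRCm39. Each runs from 250 bases before to 50 bases after the gene's start, 5′ to 3′ on the gene's strand, with each match to ACGTG or GCGTG, or to their reverse complements CACGT and CACGC, in capitals; a CACGTG counts on both strands. Adm had the steepest fall in ID8 (chr7:110627407-110627706, plus strand), Pgk1 stands for the enzymes that fell (chrX:106186850-106187149, plus strand), Egln3 (chr12:54203825-54204124, minus strand), P4ha2 (chr11:54100674-54100973, plus strand) and Ddit4 (chr10:59951721-59952020, minus strand) moved in opposite directions in the 2 lines, and Car9 (chr4:43506776-43507075, plus strand) rose in ID8 where most others fell.
Adm: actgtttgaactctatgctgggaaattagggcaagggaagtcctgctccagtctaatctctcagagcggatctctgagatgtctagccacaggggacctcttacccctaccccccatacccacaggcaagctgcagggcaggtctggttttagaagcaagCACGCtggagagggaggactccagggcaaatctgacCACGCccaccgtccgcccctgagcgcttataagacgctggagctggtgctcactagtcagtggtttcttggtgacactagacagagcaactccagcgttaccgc
Pgk1: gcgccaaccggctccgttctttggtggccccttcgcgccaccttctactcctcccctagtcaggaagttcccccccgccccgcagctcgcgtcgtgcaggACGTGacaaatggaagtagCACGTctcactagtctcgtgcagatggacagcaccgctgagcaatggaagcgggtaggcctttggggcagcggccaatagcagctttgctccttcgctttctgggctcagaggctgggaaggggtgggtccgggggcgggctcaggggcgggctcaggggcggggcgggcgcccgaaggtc
Egln3: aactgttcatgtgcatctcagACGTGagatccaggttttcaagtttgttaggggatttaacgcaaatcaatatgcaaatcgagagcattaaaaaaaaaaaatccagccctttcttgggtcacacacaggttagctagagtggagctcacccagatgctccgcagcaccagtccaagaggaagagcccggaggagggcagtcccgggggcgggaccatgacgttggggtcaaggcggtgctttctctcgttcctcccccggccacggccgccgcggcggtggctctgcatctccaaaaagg
P4ha2: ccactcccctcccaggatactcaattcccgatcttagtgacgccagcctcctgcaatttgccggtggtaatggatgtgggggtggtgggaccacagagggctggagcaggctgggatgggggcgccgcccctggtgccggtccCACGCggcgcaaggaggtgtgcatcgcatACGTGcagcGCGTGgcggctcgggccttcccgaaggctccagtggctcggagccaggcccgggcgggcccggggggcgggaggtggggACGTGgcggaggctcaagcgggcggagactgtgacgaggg
Ddit4: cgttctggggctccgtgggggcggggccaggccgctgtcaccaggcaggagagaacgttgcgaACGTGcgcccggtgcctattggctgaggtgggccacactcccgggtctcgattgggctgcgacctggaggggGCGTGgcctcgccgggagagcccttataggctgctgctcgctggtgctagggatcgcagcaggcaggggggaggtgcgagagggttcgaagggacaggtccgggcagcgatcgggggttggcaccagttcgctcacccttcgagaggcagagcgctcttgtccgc
Car9: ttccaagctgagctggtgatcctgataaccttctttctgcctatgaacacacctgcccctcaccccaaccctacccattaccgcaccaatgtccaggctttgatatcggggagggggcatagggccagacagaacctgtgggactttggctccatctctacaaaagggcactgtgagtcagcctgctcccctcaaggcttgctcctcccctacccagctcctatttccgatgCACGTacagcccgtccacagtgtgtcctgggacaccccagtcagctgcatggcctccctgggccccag

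The 2 matches of Pgk1 began at positions -150 and -131 from its start, those of Adm at -90 and -54, and the single match of Car9 at -18. P4ha2 held 4 matches, at -107, -78, -69 and 11. The table had windows for 32 of the 34 genes and none for Bhlhe40 and Ndrg1. At least 1 window of 30 of these 32 genes (93.8%) held a match, against 46.7% of 27025 genes with a window and 68.2% of the 9563 of them that were tested in ID8. ACGTG alone was in 71.9% of the 32 genes, against 29.4% of the genes tested in ID8, and GCGTG in 65.6%, against 56.7%. Counted by window, 78.7% of 47 windows held a match to either, against 62% of the 12230 windows of genes tested in ID8. A list of hypoxia response genes holds HIF targets by choice, so these shares are no separate evidence. Windows of the 32 genes had a median GC content of 63.3%, and those of genes tested in ID8 60.7%. A match is a run of letters, and no binding was measured here.

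Of the oxygen-sensing genes, the message of the hydroxylated factor was higher in the ID8 knockout and those of its 2 hydroxylases were lower. Hif1a, which encodes HIF-1 alpha, stood at 223, 218 and 211 CPM in the ID8 knockout libraries and 181, 175 and 173 CPM in the wild-type libraries. Every knockout library was above every wild-type library by a small step (log2 0.30, SE 0.0453, adjusted p = 4.09e-05). Egln3, a prolyl hydroxylase that marks HIF-1 alpha for destruction and is itself a HIF target, stood at 170.3, 182 and 178 CPM in knockout and 429, 354 and 385 CPM in wild type. All 3 knockout libraries lay at or under 182 CPM and all 3 wild-type libraries above 354 CPM (log2 -1.14, SE 0.0615, adjusted p = 5.76e-10). Egln1, the main hydroxylase that sets HIF-1 alpha levels in most cells, averaged 164 ± 6.98 CPM in knockout and 299 ± 20.2 CPM in wild type (SD, n = 3 each) and fell too (log2 -0.87, SE 0.0542, adjusted p = 1.47e-09).

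Genes for transport at both ends of glycolysis also fell in ID8. Slc16a3, the lactate exporter MCT4, stood at 83.2, 86.4 and 82.4 CPM in knockout and 214, 201 and 217 CPM in wild type. The knockout libraries lay within a narrow band far under the lowest wild-type library (log2 -1.33, SE 0.0478, adjusted p = 1.83e-12). Slc2a1, the glucose transporter GLUT1, averaged 207 ± 13.5 CPM in knockout and 314 ± 23.5 CPM in wild type and fell less (log2 -0.60). Pdk1, the kinase that switches off pyruvate dehydrogenase and so diverts pyruvate to lactate, stood at 140.3, 143 and 147 CPM in knockout and 379.6, 338 and 359 CPM in wild type. Again no library of one genotype reached the other (log2 -1.32, SE 0.0508, adjusted p = 3.76e-12). Of the bifunctional enzymes that set the level of fructose 2,6-bisphosphate, the activator of phosphofructokinase, Pfkfb3 fell (log2 -0.85), whereas Pfkfb4 averaged 2.87 ± 0.371 CPM in knockout and 2.83 ± 0.371 CPM in wild type, and its libraries overlapped (adjusted p = 0.941).

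All 14 glycolytic enzymes fell in ID8, with a median log2 difference of -0.92, and 6 of them fell by at least 2-fold. The steepest was Pfkp, the platelet isozyme of phosphofructokinase, at 37.3, 44.8 and 45.9 CPM in knockout and 199, 163 and 156 CPM in wild type (log2 -2.02, SE 0.116, adjusted p = 3.94e-06). Its liver-type isozyme Pfkl stood at 228, 233 and 246 CPM in knockout and 520.4, 475 and 463 CPM in wild type (log2 -1.05). Knockout libraries were under wild-type libraries for both isozymes of this committed step. Pgk1, the first enzyme of the route to yield ATP, stood at 1214, 1344 and 1465 CPM in knockout and 4305, 3911 and 3609 CPM in wild type (log2 -1.56, SE 0.0766, adjusted p = 6.52e-09). Aldoc, the aldolase isozyme best known from brain, stood at 46, 60.3 and 57.4 CPM in knockout and 168, 152 and 143 CPM in wild type (log2 -1.50, SE 0.101, adjusted p = 3.27e-06). Both groups of libraries were again apart, and for Pgk1 and Aldoc alike knockout replicate 1 was the lowest.

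Hk1, the hexokinase of most tissues that traps glucose in the cell, stood at 70, 79.1 and 78.5 CPM in knockout and 184, 161 and 161 CPM in wild type (log2 -1.15, SE 0.0618, adjusted p = 3.79e-10). Eno1, the enolase that makes phosphoenolpyruvate, stood at 1503, 1629 and 1676 CPM in knockout and 3539.9, 3222 and 3089.6 CPM in wild type (log2 -1.03, SE 0.0582, adjusted p = 4.51e-10). Neither gene's groups overlapped. The other 8 enzymes fell by less than 2-fold. Among them Hk2, the hexokinase induced in many tumours, moved least (log2 -0.42), and Ldha, which reduces pyruvate to lactate, moved most (log2 -0.95). Gapdh averaged 6973 ± 284 CPM in knockout and 11807 ± 730.4 CPM in wild type (log2 -0.76), and Pkm, pyruvate kinase of muscle and tumours, 2001 ± 149.7 CPM in knockout and 3488 ± 194 CPM in wild type (log2 -0.80). Deposited values of Eno1, Gapdh and Gpi1 were not all whole numbers, as happens where RSEM splits reads between similar sequences, so the levels of these 3 genes are less certain.

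**Figure D2:**
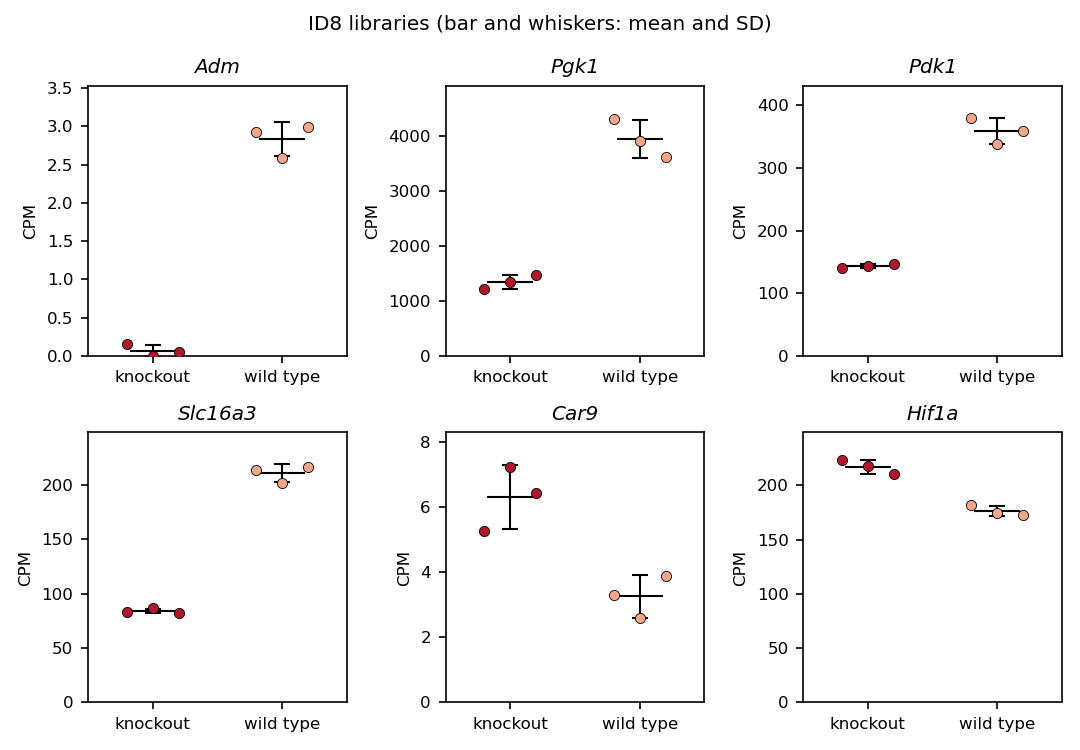
CPM of 6 genes in the ID8 libraries, 3 Trp53bp1 knockout (left in each panel) and 3 wild type (right), with each library as a point and the mean and SD as a bar and whiskers. Adm, Pgk1, Pdk1 and Slc16a3 were lower in every knockout library than in every wild-type library, and Car9 and Hif1a higher.

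Of the pH and secreted targets, 2 fell and 1 rose in ID8. Adm, which encodes the vasodilator peptide adrenomedullin, had 4 counts over the 3 knockout libraries and 162 over the 3 wild-type libraries. In CPM it stood at 0.153, 0 and 0.0514 in knockout and 2.92, 2.58 and 2.99 in wild type, so each knockout library was at or under the level that 3 counts give. The wild-type level was 41.5 times the knockout level by these counts (95% interval of the ratio 15.9 to 154, counting error only), and the fitted value was log2 -5.25 (adjusted p = 1.81e-08). Car9, the cell surface carbonic anhydrase IX that buffers the acid made by glycolysis, stood at 5.26, 7.23 and 6.42 CPM in knockout and 3.29, 2.58 and 3.89 CPM in wild type. It was low in both genotypes but higher in each knockout library (log2 0.95, SE 0.16, adjusted p = 0.000117). Vegfa, the main growth factor of blood vessels, averaged 191 ± 19.4 CPM in knockout and 338 ± 25.8 CPM in wild type and fell (log2 -0.83, SE 0.0738, adjusted p = 1.84e-06).

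The collagen prolyl hydroxylases fell as well. P4ha2, a catalytic subunit that stabilises collagen, stood at 28, 32.7 and 30.1 CPM in ID8 knockout and 91.2, 81.7 and 83 CPM in ID8 wild type (log2 -1.50, SE 0.0658, adjusted p = 2.13e-11). P4ha1, the other catalytic subunit measured, averaged 119 ± 1.83 CPM in knockout and 193 ± 7.38 CPM in wild type (log2 -0.69). The groups of both genes were apart.

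Each of the 7 remaining hypoxia response genes fell in ID8, 3 of them by at least 2-fold. Ankrd37, a small ankyrin-repeat gene induced by HIF, stood at 4.65, 6.3 and 6.63 CPM in knockout and 24.1, 16.7 and 19.5 CPM in wild type (log2 -1.78, SE 0.162, adjusted p = 7.27e-06). Bnip3, a receptor that directs mitochondria to autophagy, stood at 41.7, 43.3 and 41.9 CPM in knockout and 93.3, 81.7 and 91.5 CPM in wild type (log2 -1.07, SE 0.0594, adjusted p = 3.64e-10). Ddit4, or REDD1, which restrains the growth kinase mTORC1 under stress, stood at 224, 259.98 and 252 CPM in knockout and 509, 468 and 509.7 CPM in wild type (log2 -1.01, SE 0.0578, adjusted p = 5.43e-10). For these 3 genes too the highest knockout library was under the lowest wild-type library. Bhlhe40, a transcriptional repressor of the clock and of stress responses, stood at 176, 203 and 200.02 CPM in knockout and 285, 265 and 267 CPM in wild type, a smaller fall (log2 -0.49). Ndrg1, a stress-response gene, Mxi1, an antagonist of MYC, and Kdm3a, a histone demethylase, had log2 differences of -0.84, -0.42 and -0.35.

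Libraries of one ID8 genotype varied little. The median log2 ratio of the 34 genes to their wild-type mean was -0.97, -0.82 and -0.84 in the knockout libraries and 0.09, -0.06 and -0.03 in the wild-type libraries. Knockout replicate 1 was the lowest of the 6 libraries for 26 of the 34 genes, and wild-type replicate 1 the highest for 28. The coefficient of variation within a group had a median over 33 genes, Adm left out, of 6.52% in knockout and 6.23% in wild type. Beside these falls, 5 of the 8 epithelial markers tested fell in ID8, where 25.5% of all genes tested fell. The summed level of 10 epithelial markers was 3128 to 3263 CPM in knockout and 4011 to 4302 CPM in wild type. Proliferation markers did not move one way, with 3 of 10 higher and 1 lower, where 25.4% of all genes tested were higher and 25.5% lower. The part of these in the result was not tested.

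In KPC no fall of these genes was seen. The median log2 difference of the 34 genes was 0.15, against -0.0124 over all genes tested, with 22 differences above 0 and 12 below. At an unadjusted p under 0.05, 9 of the 34 were higher and 0 lower in edgeR's test, where 16.3% of all genes tested were higher and 16.2% lower. DESeq2's Wald test called 8 higher and 0 lower, where it called 11.4% of all genes higher and 10.8% lower. Counted in both directions, DESeq2's 8 of 34 is near its share of all genes, 22.2%. Knockout and wild-type libraries did not overlap for 3 genes, P4ha2, Ddit4 and Bhlhe40. That count is near the share of all genes tested that showed no overlap, 11.8%. Among the 14 glycolytic enzymes 0 passed in edgeR's test, with 1 higher at an unadjusted p under 0.05 and 1 by DESeq2, and their median log2 difference was 0.07.

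The 4 genes that rose in KPC come from 3 roles. As a count, 4 of 34 is near the share of all genes that edgeR called in either direction, 1953 of 14283. Ddit4 stood at 99.4, 81.2, 70.8, 70.8 and 86.6 CPM in KPC knockout and 54.3, 54.6, 57.5, 61.3 and 53.1 CPM in KPC wild type (log2 0.54, SE 0.0969, adjusted p = 0.00815). Bhlhe40 stood at 252, 252, 194, 293 and 225 CPM in knockout and 147, 192, 171, 179 and 145 CPM in wild type (log2 0.54, SE 0.117, adjusted p = 0.0164). For both, every knockout library was above every wild-type library. P4ha2 stood at 137, 73.3, 76.2, 96.2 and 98.2 CPM in knockout and 68.6, 51.1, 58.7, 69.3 and 66.6 CPM in wild type (log2 0.61, SE 0.165, adjusted p = 0.0362). Egln3 stood at 107, 50.2, 44.9, 92.8 and 67.1 CPM in knockout and 31.4, 34, 41.1, 45.8 and 36.1 CPM in wild type (log2 0.94, SE 0.234, adjusted p = 0.0281). P4ha2 was highest in knockout replicate 1 and its groups were apart by a small margin, while the lowest Egln3 library of the knockout was under the highest of the wild type. Ddit4 and Bhlhe40 passed without any single library. Egln3 and P4ha2 both lost the call without wild-type replicate 1, 2, 3 or 5 or without knockout replicate 4 or 5 (adjusted p of 0.0506 to 0.0751), and Egln3 also without knockout replicate 1 (adjusted p = 0.0533).

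Enzymes and regulators that fell by at least 2-fold in ID8 had no such fall in KPC. Pgk1 stood at 1038, 524, 606, 732 and 812 CPM in KPC knockout and 569, 649, 597, 659 and 521 CPM in KPC wild type (log2 0.31, SE 0.164, adjusted p = 0.212). Pdk1 stood at 57.7, 33.3, 32.1, 46.7 and 42.5 CPM in knockout and 44.1, 45.6, 49.9, 46.6 and 47.3 CPM in wild type (log2 -0.14, SE 0.145, adjusted p = 0.536). The Pdk1 knockout libraries lay on both sides of the narrow wild-type range, and 2 of the 5 Pgk1 knockout libraries lay within the wild-type range and 3 above it. Pfkp stood at 132, 61.2, 71.7, 116 and 83.2 CPM in knockout and 47.5, 48, 62, 79 and 47.9 CPM in wild type (log2 0.70, SE 0.229, adjusted p = 0.0647), and Slc16a3 at 151, 53.8, 60.2, 111 and 90.8 CPM in knockout and 48.3, 71, 54, 75.9 and 41.6 CPM in wild type (log2 0.68, SE 0.286, adjusted p = 0.128). Knockout replicates 1 and 4 were the 2 highest libraries for both of these genes, and the groups overlapped. Hk1 stood at 165, 178, 168, 185 and 161 CPM in knockout and 157, 165, 182, 182 and 149 CPM in wild type (log2 0.04, SE 0.0724, adjusted p = 0.765).

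Hk1 thus had little spread in KPC and overlapping groups. Pfkl stood at 175, 94.7, 111, 124 and 118 CPM in KPC knockout and 134, 108, 141, 111 and 146 CPM in KPC wild type (log2 -0.04, SE 0.156). Aldoc stood at 23.4, 11.4, 12.4, 14.9 and 13.8 CPM in knockout and 13.3, 11.9, 15.8, 15.2 and 13.6 CPM in wild type (log2 0.12, SE 0.185). For both, knockout replicate 1 was the highest of the 10 libraries and the groups overlapped. Eno1 stood at 995, 546, 598, 759.5 and 623 CPM in knockout and 598, 526, 685, 679 and 512 CPM in wild type (log2 0.23, SE 0.163). Bnip3 stood at 90.1, 28.7, 29.8, 64.9 and 72.3 CPM in knockout and 40.6, 52.9, 50.2, 57.9 and 44 CPM in wild type (log2 0.22, SE 0.304). Knockout replicate 1 was again the highest for both, and Bnip3 in knockout replicates 2 and 3 was under every wild-type library. A missed threshold does not show that the genotypes were alike.

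**Figure D3:**
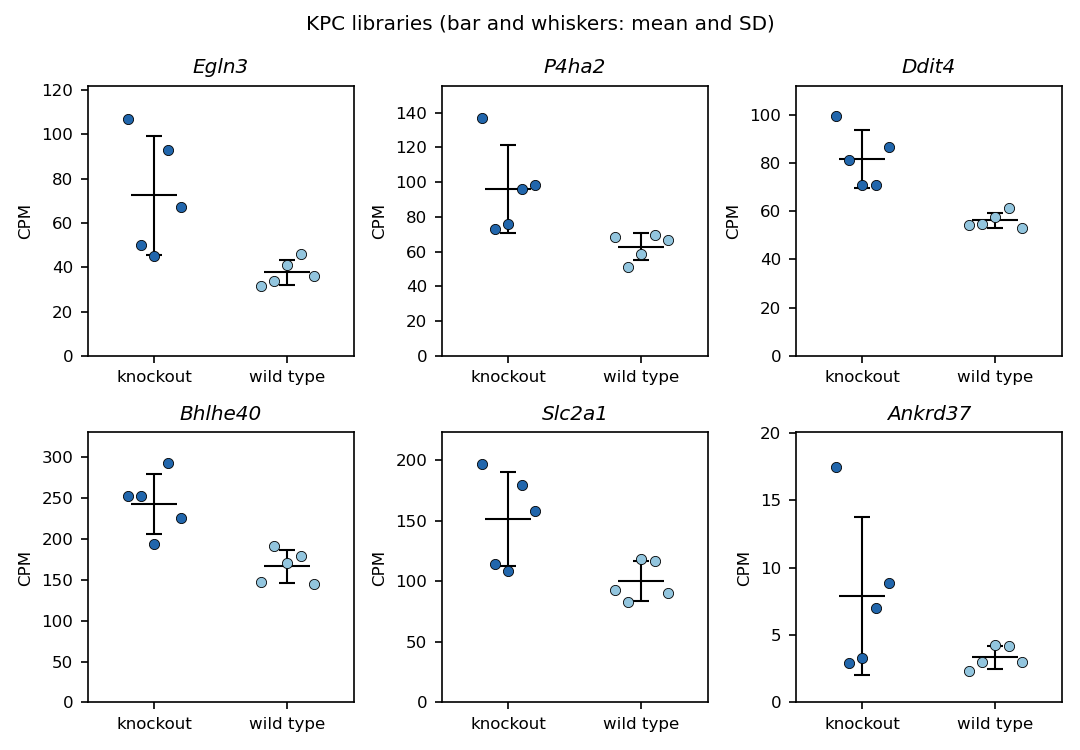
CPM of 6 genes in the KPC libraries, 5 Trp53bp1 knockout (left in each panel) and 5 wild type (right), with each library as a point and the mean and SD as a bar and whiskers. Egln3, P4ha2, Ddit4 and Bhlhe40 passed the test, Slc2a1 and Ankrd37 did not, and for P4ha2, Ddit4 and Bhlhe40 every knockout library lies above every wild-type library.

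Several further genes had higher means in KPC knockout without passing, among them genes with wide spread between libraries. Hif1a stood at 239.9, 179, 193, 276 and 184 CPM in knockout and 197, 146, 188, 205 and 159 CPM in wild type, with overlapping groups (log2 0.26, SE 0.14, adjusted p = 0.216). Ankrd37 stood at 17.4, 2.96, 3.3, 6.99 and 8.84 CPM in knockout and 2.33, 3, 4.28, 4.18 and 3.01 CPM in wild type (log2 1.23, SE 0.455, adjusted p = 0.0919). Its groups overlapped, with knockout replicate 1 far above the rest. Slc2a1, chosen here after its values were seen, averaged 151 ± 39.1 CPM in knockout and 100.02 ± 16.4 CPM in wild type (SD, n = 5 each, log2 0.60, SE 0.179, adjusted p = 0.0505). Adm, the gene with the steepest fall in ID8, stood at 21.1, 6.18, 5.21, 16.1 and 12.1 CPM in KPC knockout and 5.28, 5.66, 10.7, 13.7 and 7.77 CPM in KPC wild type, with overlapping groups (log2 0.49, SE 0.413, adjusted p = 0.428). Car9 averaged 59.2 ± 16.3 CPM in KPC knockout and 64.2 ± 24.9 CPM in KPC wild type (log2 -0.12, adjusted p = 0.789).

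The KPC knockout tumours differed among themselves. The median log2 ratio of the 34 genes to their wild-type mean was 0.48, -0.16, -0.09, 0.27 and 0.15 in knockout replicates 1 to 5, and lay between -0.15 and 0.09 in the wild-type libraries. Knockout replicate 1 was the highest of the 10 KPC libraries for 22 of the 34 genes and wild-type replicate 2 for 6. The coefficient of variation within a group had a median over 33 genes of 24.4% in KPC knockout and 14.1% in KPC wild type. Without knockout replicate 1 the median log2 difference of the 34 genes was 0.07 in place of 0.15. Ptprc, the pan-leukocyte gene, was at 218, 105, 133, 222 and 137 CPM in knockout replicates 1 to 5 and at 51.0 to 141 CPM in the wild-type libraries. Its 2 highest knockout libraries, replicates 1 and 4, were also the 2 with the highest medians of the 34 genes, and the lowest, replicate 2, had the lowest median; its part in the result was not tested.

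**Figure D4:**
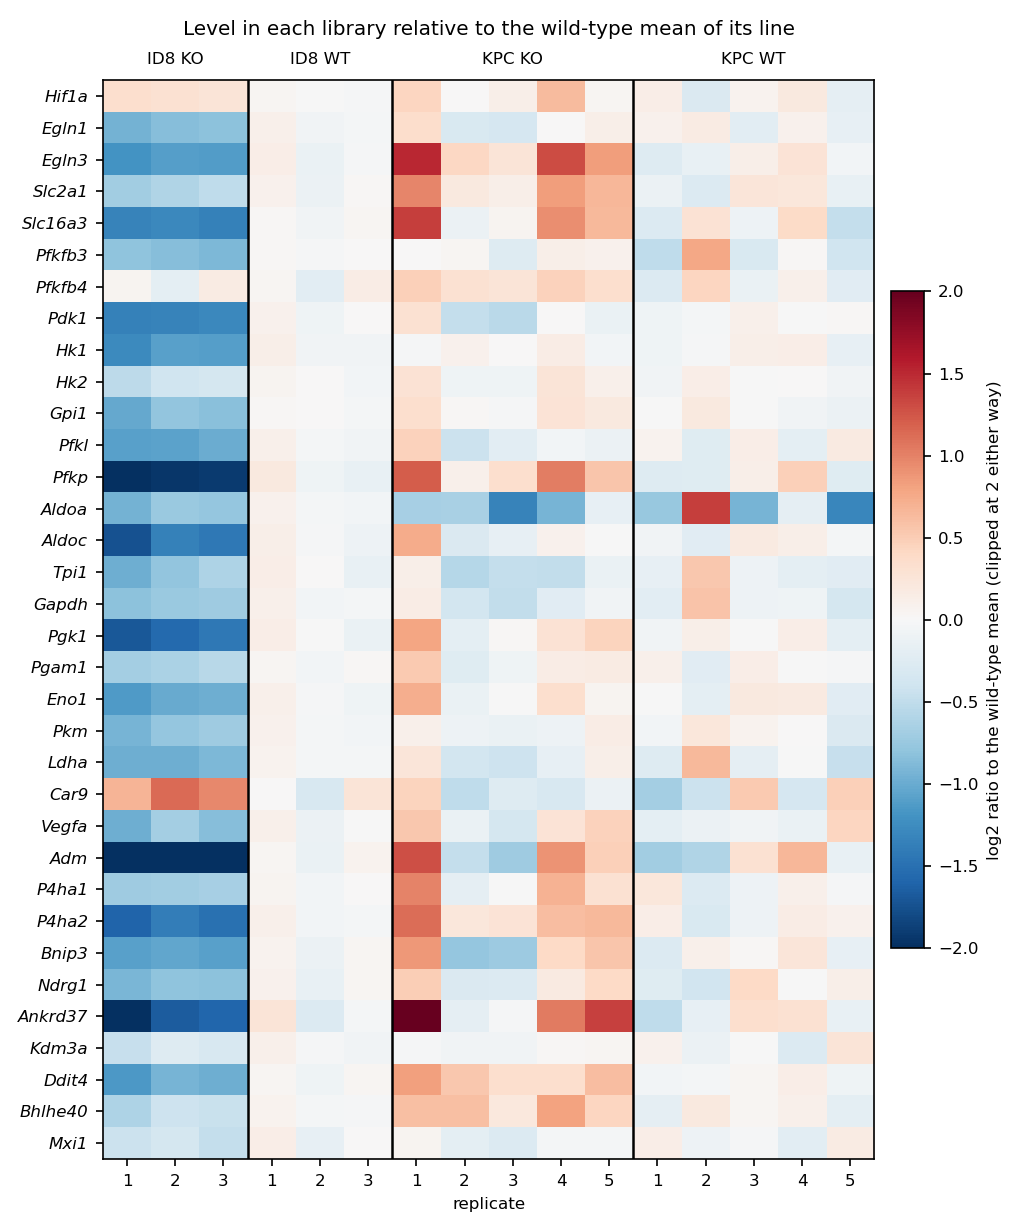
Log2 ratio of each gene's level in each of the 16 libraries to the wild-type mean of its line, with colours clipped at 2 in either direction and columns grouped as ID8 knockout, ID8 wild type, KPC knockout and KPC wild type. The 3 ID8 knockout columns are blue for nearly all genes, apart from Hif1a, Pfkfb4 and Car9, whereas the KPC knockout columns differ from each other, with replicate 1 the highest of the KPC columns for 22 of 34 genes.

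Some glycolytic enzymes were highest in the KPC library with the most muscle RNA. Aldoa, the aldolase that muscle makes in bulk, was at 860.04, 869, 539, 712 and 1209 CPM in KPC knockout and 806, 3529, 711, 1207 and 552 CPM in KPC wild type. Wild-type replicate 2, the library with the most Acta1, stood far above the other 9. The log2 difference of Aldoa was -0.70 (SE 0.498, adjusted p = 0.352) over all 10 libraries, 0.04 without wild-type replicate 2 and 0.06 without the 4 libraries above 1000 CPM of Acta1. Gapdh and Tpi1, triosephosphate isomerase, were also highest in that library, at 4346 and 809 CPM, and their log2 differences were -0.18 and -0.29 with it and 0.02 and -0.10 without it. The next highest Gapdh and Tpi1, at 3254 and 603 CPM, were in knockout replicate 1, which had 12.4 CPM of Acta1. Knockout replicate 2, with 1178 CPM of Acta1, had 2277 CPM of Gapdh and 374 CPM of Tpi1. The 18 muscle markers summed to 28.3 to 8402 CPM in knockout and 807 to 42187 CPM in wild type, and 0 of the 18 passed edgeR's test, with 2 lower at an unadjusted p under 0.05 and 1 by DESeq2.

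The 4 rises were set against muscle RNA too. Without the libraries above 1000 CPM of Acta1, which leaves 3 libraries of each genotype, 6 of the 34 genes rose and 14.1% of all genes tested were called in either direction: Ddit4, Bhlhe40 and Egln3 still passed, P4ha2 did not (adjusted p = 0.0629), and Slc16a3, Pfkfb4 and Pfkp passed as well. With the mean log2 level of the muscle markers as a covariate, under which 2.79% of all genes were called, 1 of the 34, Ddit4, passed (log2 0.59, adjusted p = 0.035), and Bhlhe40 had an adjusted p of 0.0543. Some other cell markers differed by KPC genotype, where edgeR called 6.67% of all genes tested higher and 7.01% lower. Of 10 epithelial markers 7 rose, with a summed level of 11346 to 14307 CPM in knockout and 7404 to 8928 CPM in wild type. Of 15 leukocyte markers 2 rose and all 15 differences were above 0, and DESeq2 called 13 higher, where it called 11.4% of all genes higher. Of 8 neutrophil markers 2 rose, with summed levels of 84.5 to 214 CPM in knockout and 32.6 to 80.0 CPM in wild type. Of 10 endothelial, 5 erythroid and 10 fibroblast markers tested 0 passed in edgeR or DESeq2, with 1, 0 and 0 higher at an unadjusted p under 0.05. Summed levels were 441 to 598 CPM in knockout and 406 to 582 CPM in wild type for the endothelial list. Of 10 proliferation markers 2 fell. The part of the epithelial, leukocyte and neutrophil markers in the result was not tested.

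**Figure D5:**
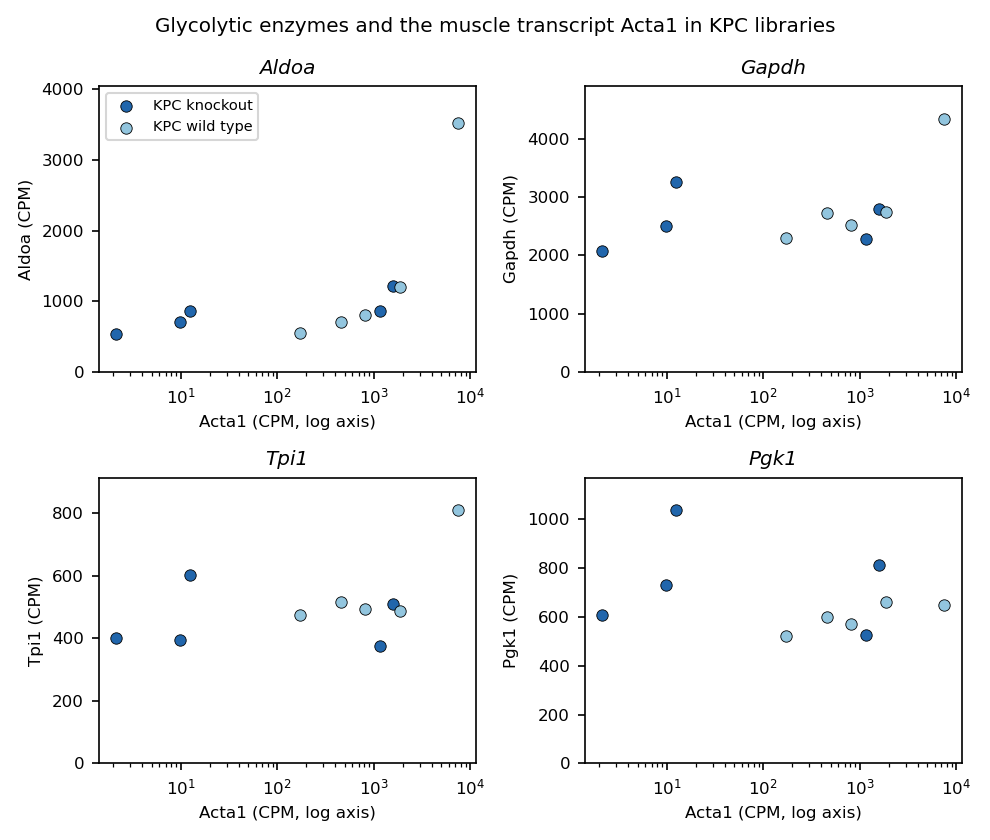
CPM of 4 glycolytic enzymes against CPM of the muscle transcript Acta1 (log axis) in the 10 KPC libraries, with 5 Trp53bp1 knockout libraries in dark blue and 5 wild-type libraries in light blue. Wild-type replicate 2, at 7583 CPM of Acta1, holds the highest Aldoa (3529 CPM), Gapdh (4346 CPM) and Tpi1 (809 CPM), while the highest Pgk1 is in a knockout library with 12.4 CPM of Acta1.

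Whether the effect of the knockout differed between the lines was tested directly as an interaction over all 16 libraries. Line and the level of host-cell markers go together in these samples, so the part of each in a difference cannot be told apart. The difference, effect in KPC minus effect in ID8, was above 0 for 32 of the 34 genes, and it passed for 25, all more positive in KPC, where 11.6% of the 14921 genes tested were more positive and 10.3% more negative. At an unadjusted p under 0.05 the counts were 29 more positive and 1 more negative, where 17.6% and 16.5% of all genes were. DESeq2 called 27 more positive and 1 more negative, Car9, where it called 12.8% of all genes more positive and 12.6% more negative. The median difference over the 34 genes was 1.06 on the log2 scale, against 0.0106 over all genes. Adm differed most (log2 5.76, SE 0.913, adjusted p = 0.000529), followed by Ankrd37 (log2 3.04, SE 0.648, adjusted p = 0.00417) and Pfkp (log2 2.75, SE 0.347, adjusted p = 9.31e-05). The smallest adjusted p-values were those of Ddit4 (log2 1.58, SE 0.147, adjusted p = 4.38e-06) and Hk1 (log2 1.21, SE 0.118, adjusted p = 6.74e-06).

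By role, 11 of the 14 glycolytic enzymes, both transporters, both collagen hydroxylases, 2 of the 3 oxygen-sensing genes and 5 of the 7 other hypoxia genes differed between the lines. Aldoa, Tpi1 and Gapdh, each at its KPC maximum in wild-type replicate 2, were the 3 enzymes that did not pass (adjusted p = 0.977, 0.169 and 0.0949). Ldha and Pkm were also at their KPC maximum in that library, at 1537 and 2516 CPM, and passed the interaction test (adjusted p = 0.0416 and 0.000989). Hif1a had a difference of -0.01 (SE 0.203, adjusted p = 1). Car9 had a negative difference that did not pass (log2 -1.04, SE 0.44, adjusted p = 0.109).

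Of 13 further HIF regulators tested, 4 rose and 6 fell in ID8, with a median log2 difference of -0.21, where 25.4% of all genes tested rose and 25.5% fell; the count that rose is near that share. Among those that rose, Arnt2, a partner subunit of HIF, was at 15.6 ± 1.07 CPM in ID8 knockout, against 9.62 ± 0.325 CPM in wild type (log2 0.70, adjusted p = 5.14e-06), and Hif1an, the asparagine hydroxylase that blocks HIF activity, was at 149 ± 2.3 CPM in ID8 knockout, against 124 ± 6.06 CPM in wild type (log2 0.27). Vhl, the recognition subunit of the ubiquitin ligase, and Rbx1, its ring subunit, fell with log2 differences of -0.36 and -0.32. In KPC 1 of 13 passed, the ligase scaffold Cul2, which fell to 40.4 ± 1.62 CPM in KPC knockout, against 48.2 ± 4.76 CPM in wild type (log2 -0.26, adjusted p = 0.0442). Of all genes tested in KPC, 7.01% fell and 6.67% rose.

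Of 36 further HIF targets tested in ID8, 27 fell and 5 rose, with a median log2 difference of -0.50, where 25.5% of all genes tested fell and 25.4% rose. Fam162a, a mitochondrial protein induced by hypoxia, fell to 82.3 ± 6.39 CPM in ID8 knockout, against 237 ± 15 CPM in wild type (log2 -1.52, adjusted p = 1.2e-11), and Higd1a, a respiratory chain factor, fell to 46.1 ± 2.08 CPM in ID8 knockout, against 109 ± 7.62 CPM in wild type (log2 -1.24, adjusted p = 6.96e-11). Pam, which amidates peptides such as adrenomedullin, rose in ID8 (log2 0.58, adjusted p = 1.22e-08), and so did the fucosyltransferase gene Fut11 (log2 0.27). In KPC the test was passed by 6 of 41, of which 1 was higher and 5 lower, and the median was 0.08. Of all genes tested in KPC, 6.67% were higher and 7.01% lower. DESeq2 called 5 of the 41 higher and 6 lower, where it called 11.4% of all genes higher and 10.8% lower. Slc2a3, the high-affinity glucose transporter GLUT3, rose to 15.2 ± 6.36 CPM in KPC knockout, against 4.85 ± 2.11 CPM in wild type (log2 1.64, adjusted p = 0.015), while Car12, another surface carbonic anhydrase, and Pam fell (log2 -1.21 and -0.28). The interaction passed for 19 of the 41 targets tested, 16 of them more positive in KPC, where 11.6% of all genes were more positive and 10.3% more negative.

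Of 12 other isozymes and partners of the glycolytic genes tested in ID8, 8 fell and 2 rose, with a median log2 difference of -0.35. Of all genes tested in ID8, 25.5% fell and 25.4% rose. Bsg, or basigin, the chaperone that carries lactate transporters to the surface, fell to 617 ± 27.1 CPM in ID8 knockout, against 1376 ± 119.99 CPM in wild type (log2 -1.16, adjusted p = 1.96e-10). Pfkm, the muscle isozyme of phosphofructokinase, fell to 57.9 ± 1.8 CPM in ID8 knockout, against 99.6 ± 3.52 CPM in wild type (log2 -0.78, adjusted p = 2.95e-09), so all 3 phosphofructokinase isozymes were lower in the ID8 knockout. Pfkfb2 and Adpgk, an ADP-dependent glucokinase, rose slightly (log2 0.43 and 0.23). In KPC 1 of 17 passed, the hexokinase-like gene Hkdc1, which fell to 7.43 ± 0.925 CPM in KPC knockout, against 15.4 ± 3.6 CPM in wild type (log2 -1.05, adjusted p = 0.00551). Of all genes tested in KPC, 7.01% fell and 6.67% rose, so this count is near that share.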

How the data were processed

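RNA of 16 samples labelled as mouse tumours was sequenced. The authors deposited one expected count per gene and library, for which the submitters' processing notes name HISAT, RSEM 1.2.8 and the build GRCm39 (mm39); further settings are not given in the sources used here. Between 7.92% and 8.96% of a file's values were not whole, and all were rounded. Genes absent from a file were set to 0. Groups came from the labels.

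Each line was fitted alone with edgeR 4.0.16 (limma 3.58.1, R 4.3.3): TMM scaling, its default filter (filterByExpr), the quasi-likelihood F test with robust fitting, and adjusted p by Benjamini-Hochberg over all genes tested, with calls under 0.05. The interaction used all 16 libraries, on its own scale, so it need not equal the difference of the separate fits. CPM are on the TMM scale of each line's fit. SE was approximated as the size of the log2 difference over the root of F. Sums over marker lists are of CPM. Ratios to the wild-type mean used a pseudocount of 0.1 CPM. Intervals cover counting error only. The procedure was tested on simulated data.

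The 34 genes and all other lists were chosen with earlier results of these data known. Values in every library were given for genes called with an absolute log2 difference of at least 1 in either line, for those called in KPC and for Hif1a. Up to 2 called genes per direction and line of each other list that holds no cell markers were named, by smallest p; 1 gene that this rule names is not reported here. Per-library values of Car9 in ID8 and of Aldoa in KPC were added after they were seen. Egln2 was named after its value was seen. Alternatives were DESeq2 1.42.0 (its size factors or its Wald test), no filter, a filter at 1 CPM, a replicate block, a joint fit, a log2 cut of 1, leaving out each library, leaving out KPC libraries above 1000 CPM of Acta1, and a muscle covariate. No 2 replicates agreed within sampling noise (chi-square per gene at least 4.364). Comparisons made separately in the 2 lines share no libraries.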

Additional observations from a re-analysis of the deposited data

Results flagged for a closer look

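In KPC, 4 of 68 groups of 5 libraries, over the 34 genes and both genotypes, held a library that stood apart from the others; chance gives about 1 in 20 such groups. KPC wild-type replicate 2 stood apart for Aldoa at 3529 CPM, for Gapdh at 4346 CPM and for Tpi1 at 809 CPM, and it is the library with the most Acta1. KPC wild-type replicate 5 stood apart for Vegfa at 284 CPM.

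The effect of the knockout differed between the lines for 25 of the 34 genes by the interaction test. The log2 differences, KPC minus ID8, were 0.89 for Egln1 and 2.11 for Egln3, 1.23 for Slc2a1, 2.04 for Slc16a3 and 1.21 for Pdk1. Among enzymes they were 1.21 for Hk1, 0.55 for Hk2, 1.07 for Gpi1, 1.04 for Pfkl, 2.75 for Pfkp, 1.64 for Aldoc, 1.89 for Pgk1, 0.77 for Pgam1, 1.29 for Eno1, 0.82 for Pkm and 0.88 for Ldha. Among the other targets they were 1.05 for Vegfa, 5.76 for Adm, 1.15 for P4ha1, 2.13 for P4ha2, 1.31 for Bnip3, 1.01 for Ndrg1, 3.04 for Ankrd37, 1.58 for Ddit4 and 1.06 for Bhlhe40.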

How the results depend on the processing

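No called value changed sign under any alternative run. In ID8, 33 of the 34 genes were called, and 33 also under DESeq2's size factors or its test, without a filter, at 1 CPM, with the replicate block and without each library; 28 were called in the joint fit, which lost Hif1a, Slc2a1, Aldoa, Car9 and P4ha1, and 14 at a log2 cut of 1. In KPC, 4 were called, and 8 by DESeq2 and 8 in the joint fit (each adding Slc2a1, Pfkfb4, Pfkp and Ankrd37, where 22.2% and 23.6% of all genes were called, against 13.7% with DESeq2's size factors in edgeR), 6 without the libraries rich in Acta1, 1 with the muscle covariate, 0 at a log2 cut of 1, and 2 to 7 when each library was left out (2 without wild-type replicate 1, 3 or 5 or knockout replicate 4 or 5, 7 without knockout replicate 2). For the interaction, 25 were called, 28 by DESeq2, 23 without a filter, 20 at a log2 cut of 1 and 23 to 27 when each library was left out; Bnip3 and Ldha kept their call in 6 and 7 of 21 settings. Over all genes tested in KPC the calls numbered 1953, with 399 under the muscle covariate, 934 without wild-type replicate 1 and 3106 without wild-type replicate 4. Trp53bp1 ranged over -1.36 to -1.28 in ID8, -0.63 to -0.51 in KPC and 0.71 to 0.80 for the interaction when each library was left out. Genes that were not called in KPC changed the sign of their difference in 25 of 272 values under other settings and in 30 of 340 with a library left out, called genes counted among these totals. Replicates with the same number share only the number: the correlations of their deviations ran from -0.111 to 0.135 in ID8 and from -0.536 to 0.587 in KPC, and 1 of 3 ID8 and 1 of 5 KPC numbers matched best with itself. With the replicate block 33 genes were called in ID8, 3 in KPC (Egln3 at an adjusted p of 0.0503) and 24 for the interaction. Causes of these shifts were not tested. Biological variation between replicates, as a coefficient estimated by edgeR, came to 5.08% for ID8 and 25.1% for KPC.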

Other observations

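Of all genes tested, 25.5% fell and 25.4% rose in ID8, and 7.01% fell and 6.67% rose in KPC. Beside these shares, genes of the pathways that branch from glycolysis gave the following counts. Of 15 genes for the entry of pyruvate into mitochondria, 6 fell and 1 rose in ID8, with a median log2 difference of -0.07, and 0 passed in KPC by edgeR or DESeq2, with 2 lower at an unadjusted p under 0.05. Pdk3, another pyruvate dehydrogenase kinase, was at 130.3 ± 3.11 CPM in ID8 knockout, against 177 ± 4.82 CPM in wild type and was called lower (log2 -0.45, adjusted p = 5.01e-07), as was its substrate Pdha1 (log2 -0.38), while the carboxylase gene Pcx rose (log2 0.44). Of 16 genes of the pentose phosphate and serine branches, 9 fell and 0 rose in ID8 by edgeR, with a median of -0.17, and 0 were higher at an unadjusted p under 0.05 or by DESeq2. G6pdx, the entry enzyme of the pentose phosphate route, was at 138 ± 0.377 CPM in ID8 knockout, against 192 ± 1.72 CPM in wild type (log2 -0.48, adjusted p = 1.22e-07), and Tkt, transketolase, fell with a log2 difference of -0.32. In KPC 1 of the 16 rose, Taldo1 (log2 0.44, adjusted p = 0.0326), and 1 fell, Phgdh (log2 -0.32, adjusted p = 0.0423).

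Of 7 genes of glucose production and glycogen breakdown tested in ID8, 4 fell and 1 rose, with a median of -0.16. Pck2, mitochondrial phosphoenolpyruvate carboxykinase, fell (log2 -0.44), and Pygm, the muscle glycogen phosphorylase, was low but rose, at 1.45 ± 0.111 CPM in ID8 knockout, against 0.769 ± 0.148 CPM in wild type. In KPC 1 of 10 passed: Pygl, the liver-type glycogen phosphorylase, rose to 55 ± 20.8 CPM in KPC knockout, against 19.6 ± 4.5 CPM in wild type (log2 1.49, adjusted p = 0.00783).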
